A study of Pseudotsuga menziesii with 26 samples.

Results

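Conifer needles take up gases through their stomata and collect particles on a waxy surface, and needles formed in an earlier year stay in use while growth is dormant. Diesel exhaust brings both, as soot and as nitrogen oxides and carbon monoxide. Cerium dioxide (CeO2) nanoparticles are added to diesel fuel as a catalyst for burning soot, and part of the cerium leaves with the exhaust. The transcripts described here are 78 of the 173882 in the deposited table of Douglas-fir (Pseudotsuga menziesii) needle transcripts. They were chosen for lower levels in all 8 deeply sequenced libraries of cerium fuel exhaust than in every library of filtered air. The table gives identifiers and no gene names or functions, and no name table was used here, so each member is named by its identifier, with a length worked out from the deposited values.

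Poly(A) RNA was sequenced from needles formed in the year before sampling, on lateral stems of seedlings that shared a parent, with 1 library per seedling and 26 in all. The Air Control group (n = 6) received air cleaned with charcoal, Purafil and a HEPA filter, the DE group (n = 7) exhaust of diesel fuel, the DECe group (n = 7) exhaust of diesel fuel with the CeO2 nanoparticle catalyst, and the DECe Gas Phase group (n = 6) the DECe exhaust after a HEPA filter. Exposure ran for 6 h a day, 5 days a week, over 2 weeks, with filtered air in between. Each atmosphere had 1 chamber of 984 L, so an atmosphere cannot be told apart from its chamber, and the spread between libraries is that of seedlings within a chamber.

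Libraries differed widely in depth, and this bears on every result below. The rule counts only transcripts with identifiers above psme_t000300 (the longest ones are left out) and without the 23 transcripts that passed 1% of these counts in any library. In the 15 deep libraries, 5768522 to 32852277 counts remained. In the 11 shallow ones, 129207 to 716795 remained. The deep libraries are the 6 of Air Control, 4 of DECe, 4 of DECe Gas Phase and DE replicate 5. Levels are given as CPM, counts per 1000000 of these remaining counts. A count of 0 allows up to 3 counts, which is 0.0913 to 0.520 CPM in a deep library and 4.19 to 23.2 CPM in a shallow one. This floor and the intervals below cover counting error only.

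Members were chosen by their measured CPM. A member had at least 1 CPM in every Air Control library, a lowest Air Control level above the highest of DECe replicates 2, 3, 4 and 13 and DECe Gas Phase replicates 2, 3, 7 and 10, and a mean in Air Control of at least 2 times the mean of those 8. Of 18939 transcripts with at least 1 CPM in every Air Control library, 103 (0.544%) lay above all 8 exhaust libraries, and 78 of these also passed the fold. The reverse rule, with the 8 exhaust libraries above all 6 Air Control libraries by the same limits, gave 109 transcripts, and 0.851% of 18211 lay above without the fold. The contrast of air with deep cerium exhaust therefore chose the members, and its values are a description with no test. The list depended on the scaling of the libraries. With the library sizes scaled by TMM (trimmed mean of M values) the rule gave 111 transcripts, 68 of them among the 78, and with the dominant transcripts kept in the totals it gave 32, of which 29 were among the 78.

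Together, the 78 members made up 4110 ± 631 CPM in Air Control (SD, n = 6), against 1558 ± 263 CPM in deep DECe (SD, n = 4) and 1479 ± 153 CPM in deep DECe Gas Phase (SD, n = 4). Their Air Control means ran from 1.94 to 1306 CPM with a median of 13.4 CPM, close to the median of 11.98 CPM over the 18939. The ratio of the Air Control mean to the mean of the 8 exhaust libraries had a median of 3.44 over the members, and ran from 2.02 to 282. Of the 78, 32 had a ratio from 2 to 3, 27 from 3 to 5, 6 from 5 to 10 and 13 above 10.

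The members fell into 2 sets of different behaviour. The 14 with the highest ratios (9.005 to 282) were also the 14 in which, in CPM, Air Control replicate 14 was the highest Air Control library by 2.36 to 11.3 times the next. In the other 64, with the lower ratios, replicate 14 reached at most 1.60 times the next highest Air Control library. Over the 18939, such a lead of at least 2 times in replicate 14 was seen in 1.57%. This division was made after the values were seen, so no test is given for it. The 14 were also short, at 359 to 1333 nt with a median of 676 nt, while the 64 had a median of 2028 nt and the 18939 a median of 2150 nt. Length was no part of the thresholds.

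**Figure D1:**
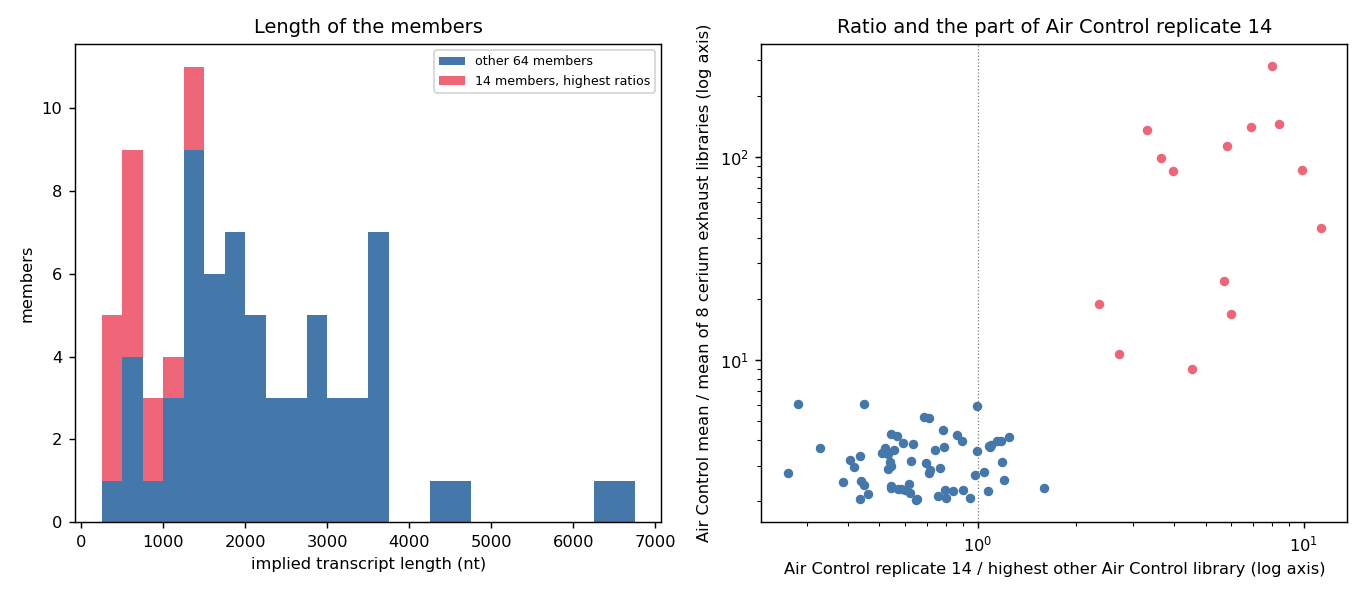
Left, implied length of the 78 members in nt (bars of 250 nt, stacked by set). Right, each member's Air Control to exhaust ratio against the level of Air Control replicate 14 over the highest other Air Control library, both on log axes. The 14 members with the highest ratios all lie at 2.36 or more on the horizontal axis and at 1333 nt or less.

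In the 64 members, the change from air to deep cerium exhaust was moderate and even. Library by library, the median CPM of these members relative to their Air Control mean was 0.83 to 1.20 in the 6 Air Control libraries, 0.23 to 0.36 in the 4 DECe and 0.28 to 0.41 in the 4 DECe Gas Phase libraries. As a share of all counts of a library, the 64 were at 0.0650% in Air Control replicate 14. This was below the deep cerium exhaust libraries (0.0668% to 0.0954%), while the other Air Control libraries were at 0.175% to 0.270%. The coefficient of variation among Air Control seedlings had a median of 27.995% over these 64, against 36.5% over the 18939. The rule asks for a lowest Air Control level above every deep cerium exhaust library, which favours a low spread in Air Control. Setting apart the members led by Air Control replicate 14 favours it too. Neither this lower median nor the even change is therefore read as a trait of the 64.

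The most abundant member was psme_t007740 (3080 nt). It had 1001, 1257 and 1836 CPM (lowest, median and highest) in Air Control. The 4 deep DECe libraries were at 934, 840, 502 and 388 CPM (replicates 2, 3, 4 and 13), and the deep DECe Gas Phase libraries at 472, 422, 727 and 617 CPM (replicates 2, 3, 7 and 10). The gap between the groups was narrow, from 934 CPM in DECe replicate 2 to 1001 CPM in the lowest Air Control library, for a ratio of means of 2.13. This transcript was also the most abundant member per length, at 208 ± 87.2 RPKM in Air Control (SD, n = 6, authors' reads per kilobase and per 1000000 counts). In RPKM, which is over all counts, the groups overlapped. Air Control ran from 74.8 RPKM in replicate 14 to 331 RPKM, and the 8 exhaust libraries from 70.8 to 162 RPKM.

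The next in mean CPM, psme_t006175 (3337 nt), had 200, 249 and 350 CPM in Air Control. In deep DECe it was at 194, 99.1, 105 and 60.4 CPM, and in deep DECe Gas Phase at 173, 50.9, 123 and 84.8 CPM. DECe replicate 2 came within a few CPM of the lowest Air Control library, while DECe Gas Phase replicate 3 was the lowest of the 8. The ratio of means was 2.31. In RPKM the groups overlapped for this transcript too. Air Control ran from 9.98 RPKM in replicate 14 to 51.6 RPKM, and the 8 exhaust libraries from 7.89 to 30.9 RPKM.

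Among the 64, psme_t034775 (1325 nt) and psme_t036967 (1257 nt) had wide gaps in CPM, and were singled out after their values were seen. The first had 147, 194 and 233 CPM in Air Control and 19.4 to 51.8 CPM in the 8 exhaust libraries, a ratio of 5.87. The second had 89.1, 149 and 197 CPM in Air Control and 17.4 to 42.0 CPM in the 8, a ratio of 5.15. Both were highest in Air Control replicate 15 and, among the 8, in DECe Gas Phase replicates 2 and 10. Per length, these came next after psme_t007740 in Air Control, at 69.1 and 58.2 RPKM. In RPKM, over all counts, their gaps were narrower. Air Control replicate 14 was at 29.1 and 18.5 RPKM, against 19.9 and 16.9 RPKM in DECe Gas Phase replicate 2. The counting of reads that match several transcripts is not stated in the labels or headers, so a member cannot be told apart from any near-identical copy of it.

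At the thresholds, the members lay close to transcripts outside the list. The lowest ratios inside were 2.02 for psme_t012560 (2526 nt, 80.9 CPM in Air Control and 40.0 CPM in the 8) and 2.05 for psme_t008404 (2982 nt). Just outside were psme_t041947 at 1.998 and psme_t103063 at 1.98. The smallest gaps inside were those of psme_t088233 (563 nt), with 3.60 CPM in the lowest Air Control library against 3.56 CPM in DECe replicate 2, and of psme_t028213 (1577 nt), with 16.2 against 15.9 CPM. In psme_t088233 the other 7 exhaust libraries were at 0 to 1.21 CPM, so a single library set its gap. Just outside the gap were psme_t049212 and psme_t046484, whose lowest Air Control level was 0.998 and 0.996 times the highest exhaust level.

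**Figure D2:**
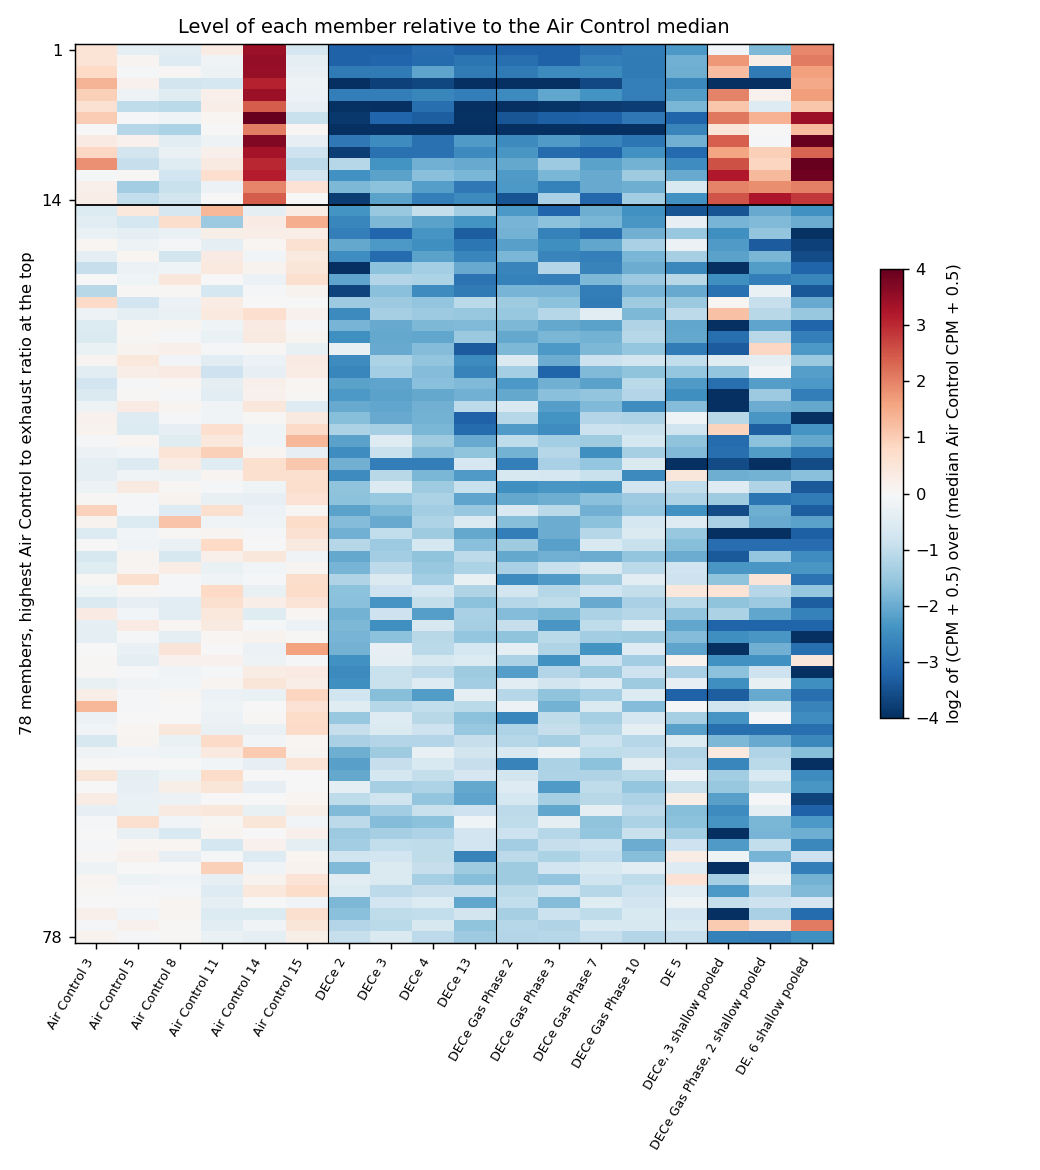
Level of each of the 78 members (rows, highest ratio at the top, the line below row 14 parting the sets) in the 15 deep libraries and in the shallow libraries pooled by group (columns), as log2 of (CPM + 0.5) over (median Air Control CPM + 0.5). All 8 deep cerium exhaust columns are below the Air Control median in every row, while the top 14 rows are high in Air Control replicate 14 and in pooled shallow DE.

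The 14 short members had a different range. Their summed level was 940 CPM in Air Control replicate 14 and 65.0 to 166 CPM in the other 5 Air Control libraries. In the 8 deep exhaust libraries it was 3.84 to 13.7 CPM, below the lowest Air Control library. Without Air Control replicate 14, the ratios of these 14 ran from 4.73 to 95.8 with a median of 32.2, against a median of 85.5 with it. Replicate 14 also stood apart in composition, since 16.6% of its counts remained after the removal of long and dominant transcripts, against 42.2% to 64.8% in the other 14 deep libraries and 3.58% to 14.9% in the shallow ones. As a share of all counts of a library, the 14 were at 0.0156% in replicate 14 and 0.00380% to 0.00916% in the other 5. In RPKM, replicate 14 was the highest Air Control library in all of the 14 except psme_t154997 and psme_t127626. These were at 11.5 and 7.01 RPKM there, against 16.1 RPKM in replicate 3 and 8.60 RPKM in replicate 15. The lead of replicate 14 thus depended on the scaling. The part of this composition in the levels of the 14 was not tested.

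The 2 highest ratios were those of psme_t075870 (643 nt) and psme_t071083 (682 nt). The first had 2.45, 4.18 and 51.2 CPM in Air Control (lowest, median and highest), and 4 counts over all 8 exhaust libraries, of which 5 had none. Its ratio was 282, and 95.8 without Air Control replicate 14. The second had 2.82, 4.25 and 53.8 CPM in Air Control and 9 counts over the 8, with 2 libraries at 0. Its ratio was 145, and 48.6 without replicate 14. In both, 5 Air Control libraries were at a few CPM and replicate 14 far above them.

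The first comparison asked whether the particle filter changed the members, with deep DECe set against deep DECe Gas Phase (4 libraries each). The rule held all 8 of these libraries below Air Control and did not use the division between them, so the members are limited to transcripts low in both groups. No member passed the test (0 of 78, edgeR quasi-likelihood test with Benjamini-Hochberg adjustment over 45063 transcripts at an adjusted p under 0.05, where the background was 0% in either direction). At an unadjusted p under 0.05 edgeR gave 1 member, against 5.42% of all transcripts, and DESeq2 gave 3 members and 2400 transcripts. At an adjusted p under 0.05 DESeq2 called 0 members and 13 transcripts in all. On simulated counts for this comparison, edgeR recovered 41% of 4-fold and 92% of 16-fold changes, so many 4-fold changes would be missed. The changed transcripts had a minimum mean count, so these shares do not hold for members with few counts in the 8 libraries. Some members passed the filter on low counts through their Air Control level, since 63 of the 78 passed it with only these 8 libraries. The member with an unadjusted p under 0.05 in edgeR, psme_t033361 (1375 nt, named after its values were seen), was at 2.83, 2.22, 2.48 and 0.665 CPM in DECe and 4.51, 1.57, 4.32 and 4.16 CPM in DECe Gas Phase. Its log2 change was -0.93 ± 0.41 (SE, edgeR adjusted p = 0.909), and the groups overlapped.

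In none of the 78 did the 4 DECe libraries lie apart from the 4 DECe Gas Phase libraries, which was seen in 0.628% (DECe below) and 1.06% (DECe above) of the 18939. The median over the members of the log2 change between DECe and DECe Gas Phase was -0.27, with 62 of 78 below 0. Over all transcripts tested the median was -0.0018, with 50.1% below 0. With library sizes alone the members' median was 0.01, with 39 of 78 below 0, against 0.26 over all. On log2(RPKM + 1) values it was 0.0119 against 0.0840 over all. Its sign thus changed with the scaling. In each of these settings the members' median was below that of all transcripts, by less on log2(RPKM + 1) values. The cause of this distance was not tested. For the most abundant member, psme_t007740, the change was 0.11 ± 0.29 (SE, edgeR adjusted p = 0.991). The typical SE was 0.44 over the members and 1.38 over the 14 short ones.

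The second comparison asked where diesel exhaust without cerium stood, from the single deep DE library, which the rule did not use. DE replicate 5 was below the lowest Air Control library in 62 of the 78 members (79.5%), against 17.4% of the 18939. The Air Control side of this count is the one that chose the members, so it is given as a description. In 41 members DE replicate 5 lay within the range of the 8 cerium exhaust libraries, in 7 below it and in 14 between it and Air Control. In 14 it lay within the Air Control range and in 2 above it, where 30.9% of the 18939 were above. The median level in DE replicate 5 was 0.33 times the Air Control mean over the 78, 0.38 times over the 64 and 0.048 times over the 14, against 1.11 times over the 18939.

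Both members above Air Control in DE replicate 5 belonged to the 64. The abundant psme_t007740 reached 1861 CPM there, 1.42 times its Air Control mean. The level of psme_t004736 (3654 nt) was 28.5 CPM in DE replicate 5, against 15.9, 22.9 and 25.6 CPM in Air Control and 3.19 to 13.3 CPM in the 8 cerium exhaust libraries, 1.32 times the Air Control mean. In the fit, their log2 changes from Air Control were 0.21 ± 0.43 and 0.08 ± 0.52 (SE, edgeR adjusted p = 0.905 and 0.977).

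Among members with a mean of at least 5 CPM in air, psme_t065121 (740 nt) and psme_t028213 were lowest in DE replicate 5 relative to Air Control. The first had 2.93, 4.94 and 13.3 CPM in Air Control, 0.104 to 2.29 CPM in the 8 and 0 counts in DE replicate 5. At a floor of 3 counts, 0.173 CPM in that library, its level was at least 34.7-fold lower than the Air Control mean of 6.01 CPM (edgeR adjusted p = 0.0895). It passed the threshold in 3 of 16 alternatives, with adjusted p down to 0.00405. The second had 16.2, 24.0 and 50.7 CPM in Air Control, 3.10 to 15.9 CPM in the 8 and 2 counts in DE replicate 5. The Air Control mean was 244 times that level (counting interval 67.7 to 2018, edgeR adjusted p = 0.0795), and the call passed in 6 of 17 alternatives, with adjusted p down to 5.45e-06. In DE replicate 5, psme_t028213 was below all 8 cerium exhaust libraries, while the floor for psme_t065121 lay above its 0.104 CPM in DECe Gas Phase replicate 3.

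By edgeR, 0 of 78 members passed the test between DE replicate 5 and Air Control, where the background was 0.00444% lower and 0.0555% higher of 45063 transcripts. At an unadjusted p under 0.05 there were 48 members (61.5%), against 9.25% of all transcripts, but the Air Control levels in this contrast chose the members, so the raised share is not a result. DESeq2 called 29 members, all lower, among 889 calls. This fit rests on 1 DE library, whose spread was taken to equal that of the other groups. In the contrasts that chose the members, 23 of 78 passed in DECe against Air Control, with a background of 0.0666% lower and 0.0599% higher, and 12 of 78 in DECe Gas Phase against Air Control, with 0.0311% lower and 0.12% higher (edgeR). The same libraries chose the members, all of these were lower in exhaust as the rule requires, and nothing is read from these counts or from their distance to the background. The 23 became 15, 9, 9 and 12 without Air Control replicates 3, 5, 11 and 15, and 7, 10, 4 and 7 without DECe replicates 2, 3, 4 and 13. The 12 became 7, 7 and 6 without Air Control replicates 5, 11 and 15, and 4, 1 and 5 without DECe Gas Phase replicates 2, 3 and 7. The 3 comparisons share the Air Control libraries.

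**Figure D3:**
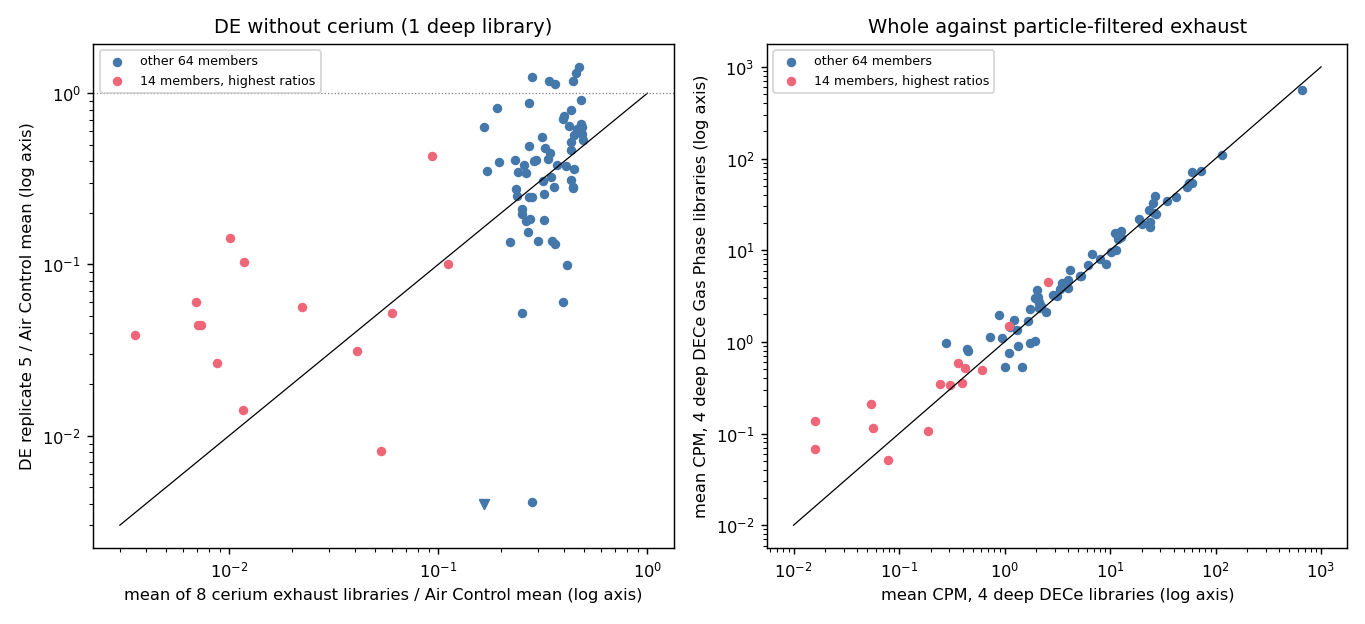
Left, level of each member in DE replicate 5 against its mean in the 8 cerium exhaust libraries, each relative to the Air Control mean (log axes, the triangle is psme_t065121 with 0 counts, drawn at the lower edge, the diagonal marks equal levels and the dotted line the Air Control mean). Right, mean CPM in the 4 deep DECe Gas Phase libraries against the 4 deep DECe libraries (log axes, the diagonal marks equal levels). Most members lie below the dotted line on the left, and close to the diagonal on the right.

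In the shallow libraries, which the rule did not use, the summed level of the 14 short members was not low in CPM. In all 11 shallow libraries 10 to 14 of these 14 had counts, with a summed level of 325 to 869 CPM in the 6 DE libraries and 83.7 to 648 CPM in the 5 cerium exhaust libraries. All 11 were above the highest of the 8 deep cerium exhaust libraries, 13.7 CPM, and in CPM the DE libraries were above 5 of the 6 Air Control libraries. The lowest was DECe Gas Phase replicate 4, and the others of that count were at 235 CPM or more. As a share of all counts of a library, DE replicate 12 was at 0.00679% and the other shallow DE libraries at 0.00170% to 0.00293%. Shallow cerium exhaust was at 0.000945% to 0.00671%, Air Control at 0.00380% to 0.0156% and the 8 at 0.000204% to 0.000626%. The order of shallow DE and Air Control thus depended on the scaling, while all 11 stayed above the 8. Depth, composition and the CPM levels moved together, and their parts were not tested.

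With the shallow libraries pooled by exposure, none of the 14 lay below the lowest Air Control library in DE, where 78.2% of the 18939 did, and 5 lay above the highest, where 2.46% did. In pooled shallow cerium exhaust, 2 of the 14 lay below the lowest Air Control library, where 41.1% of the 18939 did, and 1 above the highest, where 7.48% did. The 2 were psme_t075870, at 2.42 CPM against 2.45 CPM, and psme_t132144 (405 nt), with 0 counts. The single one was psme_t034558 (1333 nt), at 147 CPM (95% exact Poisson interval 133 to 163) against at most 107 CPM in Air Control and 0.913 to 7.62 CPM in the 8. In shallow libraries it ran from 36.3 CPM in DECe Gas Phase replicate 4 to 420 CPM in DECe Gas Phase replicate 5, all above the 8 in CPM. In RPKM, over all counts, it ran from 2.43 to 21.2 in shallow libraries, against 4.59 to 13.3 in Air Control and 0.365 to 2.955 in the 8. For most of the 14, the lower CPM of the 8 deep cerium exhaust libraries was thus not seen in the pooled shallow ones. The exception by its interval was psme_t132144, whose upper limit of 1.49 CPM lay below its lowest Air Control level of 4.197 CPM. This reading holds in CPM only. Of all counts, the 14 made up 0.00247%, 0.00163% and 0.000945% in DECe replicates 5 and 10 and DECe Gas Phase replicate 4. All of these were below the lowest Air Control library (0.00380%). DECe replicate 15 and DECe Gas Phase replicate 5, at 0.00671% and 0.00436%, were above it. In RPKM, psme_t075870 was at 0 to 1.84 in shallow cerium exhaust, against 2.11 or more in Air Control, while psme_t034558 overlapped with Air Control.

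For the 64, the shallow libraries held few counts. Between 6 and 49 of them had any count in a library, and the floor of 4.19 to 23.2 CPM lies above many of their Air Control levels. Without psme_t007740, their summed level was 521 to 1398 CPM in the 5 shallow cerium exhaust libraries and 271 to 896 CPM in the 6 shallow DE libraries, against 2281 to 3031 CPM in Air Control and 820 to 1020 CPM in the 8. All 11 were below every Air Control library. Pooled, 54 of the 64 (84.4%) lay below the lowest Air Control library in shallow cerium exhaust, where 41.1% of the 18939 did. In shallow DE 62 of 64 (96.9%) did, against 78.2% of the 18939. Air Control levels chose the members, so these shares are not tests, and shallow DE libraries were low for most transcripts.

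The 2 exceptions in pooled shallow DE were psme_t008404 and psme_t011683, both above the highest Air Control library in CPM. The first was at 37.4, 50.6 and 70.5 CPM in Air Control, 16.1 to 32.8 CPM in the 8 and 33.2 CPM in DE replicate 5. In shallow DE it was at 130 to 302 CPM in all 6 libraries, and pooled at 218 CPM (95% exact Poisson interval 197 to 240). In RPKM, over all counts, psme_t008404 was not above Air Control. It was at 2.46 to 4.43 RPKM in these 6, 2.56 to 13.1 RPKM in Air Control and 3.27 to 6.07 RPKM in the 8. In shallow cerium exhaust it was at 190, 88.6 and 63.4 CPM in DECe replicates 5, 10 and 15, and at 5.58 and 178 CPM in DECe Gas Phase replicates 4 and 5. In CPM, DECe Gas Phase replicate 4 alone was below the 8. The level of psme_t011683 rested on few counts, with 3.14 CPM pooled against at most 2.53 CPM in Air Control.

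**Figure D4:**
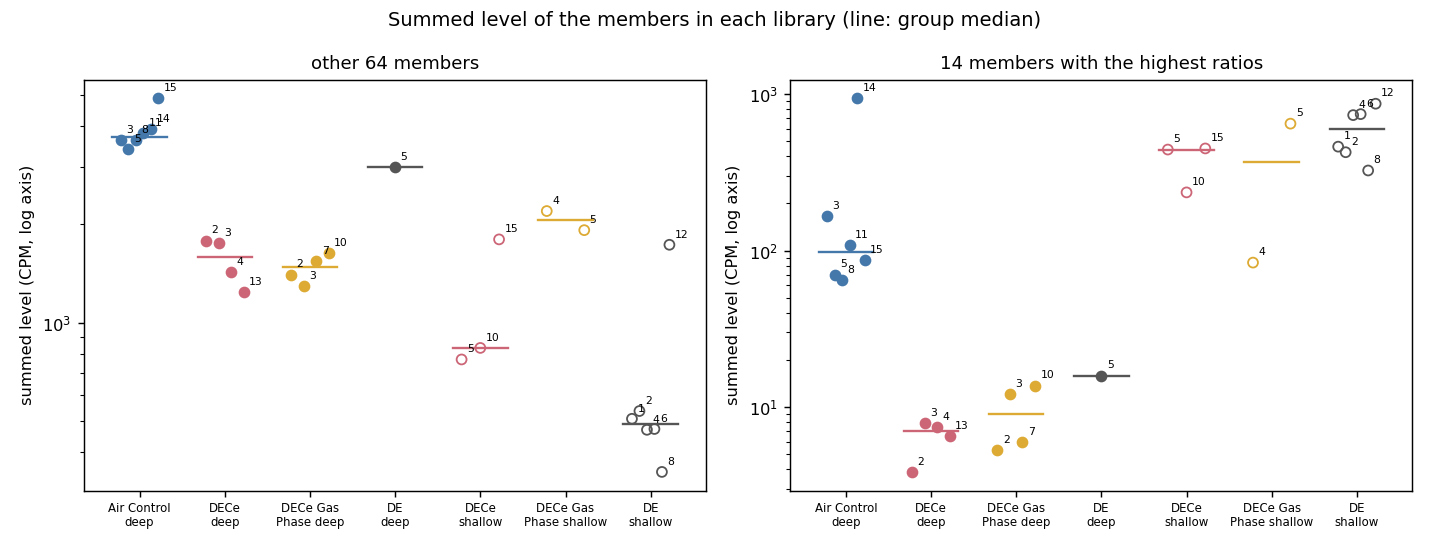
Summed CPM (log axis) of the 64 members (left) and the 14 members (right) in each library, with replicate numbers, filled for deep and open for shallow libraries, and lines at group medians. On the left Air Control is highest and shallow DE mostly lowest. On the right the deep exhaust libraries are at 15.9 CPM or less, and Air Control replicate 14 and most shallow libraries at 235 CPM or more.

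The last comparison set shallow DECe (3 libraries) against shallow DE (6 libraries), none of which the rule used. Of the 78 members 33 passed the filter on low counts (11 of the 14 and 22 of the 64), and 0 passed the test, with a background of 0% of 8905 transcripts in either direction (edgeR quasi-likelihood test, adjusted p under 0.05). At an unadjusted p under 0.05 edgeR gave 3 members, all of the 14, against 6.46% of all transcripts, and DESeq2 gave 6 members and 766 transcripts. At an adjusted p under 0.05 DESeq2 called 0 members and 4 transcripts in all. On simulated counts for this comparison, edgeR recovered 5% of 4-fold and 46% of 16-fold changes, so the 0 cannot decide whether members differed. Here too the changed transcripts had a minimum mean count, and the shares do not hold for members with fewer counts. The 3 from edgeR were psme_t132144, psme_t061327 and psme_t154997, all lower in DECe and named after their values were seen. Pooled, psme_t061327 was at 25.4 CPM in shallow DECe and 81.1 CPM in shallow DE, a log2 change of -2.26 ± 1.02 (SE, edgeR adjusted p = 0.719). The level of psme_t132144 was 0 counts in shallow DECe and 21.98 CPM in shallow DE, where 3 of 6 libraries had counts.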

How the data were processed

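Per the file headers, the authors deposited raw counts per transcript and library, and RPKM values. The length implied by counts, RPKM and column totals was the same in all libraries for a transcript (spread up to 0.0096% where RPKM was at least 10). Per the submitters' processing notes, CASAVA 1.8.2 was used. The aligner, counter, reference transcriptome and strand setting: not given in the sources used here. Groups came from the source label and replicate numbers from the title. No column was left out. The members and lists were chosen with earlier results of these data known.

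The rule was applied in order: identifiers above psme_t000300, removal of transcripts above 1% of these counts in any library, CPM over the rest. Named members follow rules on ratio, level, DE replicate 5, shallow counts and thresholds, and others are said to be singled out or named after their values were seen. edgeR 4.0.16 (R 4.3.3) was run on the counts as deposited, with filterByExpr (minimum count 10), TMM, robust quasi-likelihood tests and Benjamini-Hochberg adjustment, in 1 fit of the 15 deep and 1 of the 11 shallow libraries. The printed SE is the log2 change over the root of its F statistic. All 78 members passed the deep filter, where their Air Control level could carry them. The fits were checked on simulated counts with 200 changed transcripts, drawn from those above a minimum mean count over the libraries of a fit. Recovery for members with fewer counts is not known from this. Of 4-fold changes, edgeR recovered 41% in DECe against DECe Gas Phase, 11% in DE replicate 5 against Air Control and 5% in shallow DECe against shallow DE. Of 16-fold changes it recovered 92%, 59% and 46%. A count of 0 members called therefore does not show that the members were unchanged. Alternatives were other scalings and filters, DESeq2 1.42.0, limma 3.58.1 (voom, and log2(RPKM + 1) or log2(RPKM + 0.1)), other sets of libraries, the replicate number as a block, and leaving out libraries. Total counts were 2467403 to 60457187.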

Additional observations from a re-analysis of the deposited data

Results flagged for a closer look

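The groups searched were Air Control and shallow DE (6 libraries each) and deep DECe and deep DECe Gas Phase (4 libraries each). A highest or lowest value far from the nearest other library was looked for in 52 sets of values. Chance alone would mark about 1 in 20 of these. Such a value was found in 14. The sets share members and some follow from how the members were divided, so this number is not set against that share. In Air Control, replicate 14 stood far above the others in the summed level of the 14 short members (940 CPM, next 166 CPM), in psme_t075870 (51.2 CPM, next 6.40 CPM) and in psme_t071083 (53.8 CPM, next 6.40 CPM). Both transcripts belong to the 14, which were parted from the 64 by this lead of replicate 14, so these values were fixed in advance. Replicate 15 stood above the others in the summed level of the other 64 (4867 CPM, next 3909 CPM). Without psme_t007740, the most abundant of the 64, this lead was smaller (3031 CPM, next 2801 CPM in replicate 11).

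In shallow DE, replicate 12 was the highest in 7 sets of values. They were the summed level of the 78 (2601 CPM, next 1217 CPM) and of the 64 (1732 CPM, next 535 CPM), psme_t007740 (836 CPM, next 144 CPM), psme_t006175 (123 CPM, next 24.2 CPM), psme_t075870 (36.3 CPM, next 11.3 CPM), and psme_t065121 (1.58 CPM) and psme_t028213 (4.73 CPM), which had 0 counts in the other 5. Replicate 12 had the most remaining counts of the shallow DE libraries, 634093. With it left out of the pooled shallow DE libraries, 0 of the 14 and 63 of the 64 lay below the lowest Air Control library, as did 89.3% of the 18939 transcripts with at least 1 CPM in every Air Control library.

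Single libraries also stood apart in psme_t088233 (DE replicate 6, 2.82 CPM, the other shallow DE libraries at 0), in psme_t075870 (DECe replicate 4, 0.0635 CPM or 1 count, the other deep DECe libraries at 0) and in psme_t012560 (DECe Gas Phase replicate 7, 43.2 CPM, next 37.3 CPM).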

How the results depend on the processing

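The number of members was 78, 46 with a fold of at least 3 and 32 with dominant transcripts kept, 67 to 111 under the other 7 alternatives, and 79 to 109 without 1 library. Members called were 0 under all 20 alternatives between DECe and DECe Gas Phase, and 0 under all 20 between shallow DECe and shallow DE. Between DE replicate 5 and Air Control they were 0 without any 1 Air Control library, 1 with library sizes alone or log2(RPKM + 1), 2 with log2(RPKM + 0.1) or only the groups compared, 3 without a filter or with limma-voom, and 29 with DESeq2. Between DECe and Air Control they were 23, 13 with library sizes alone, 66 with DESeq2 and 4 to 21 without 1 library. For DECe Gas Phase they were 12, 58 with DESeq2 and 1 to 17 without 1 library. These alternatives of the last 2 contrasts were chosen after seeing the data. The cause of these changes was not tested. With the replicate block, DECe against DECe Gas Phase gave 0 members and 1079 transcripts in all. The labels do not say that a number pairs seedlings, and the shared numbers (replicates 2 and 3) had correlations of deviations of 0.07 and -0.16. No paired analysis was possible for the other tests because fewer than 2 numbers are shared. The summed Air Control level was 2.71 times that of the 8, 2.61 without Air Control replicate 14.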
